A study of Sus scrofa with 9 samples.

Results

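The genes described here form a panel of cytotoxic lymphocyte genes, measured by RNA-seq in the abdominal aorta of Tibetan minipigs. Genes enter the panel by name, with no threshold on a measured value. It names 9 genes, GZMA, GZMB, PRF1, NKG7, KLRK1, KLRD1, CD247, EOMES and TBX21. Of these, 8 have an entry of their name among the 21357 genes in the deposited expression table, and KLRD1 has none. Where a name had several entries, the one with the highest mean expression over the 9 libraries was taken, which applied to GZMA alone.

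Cytotoxic T cells and natural killer (NK) cells kill target cells by releasing granules onto them. Perforin, encoded by PRF1, opens the target membrane, and granzymes such as those encoded by GZMA and GZMB are serine proteases that act inside the target. NKG7 encodes a membrane protein of these granules. KLRK1 encodes the activating receptor NKG2D and KLRD1 encodes CD94, a partner chain of NKG2 receptors. CD247 encodes the zeta chain that carries the signal of the T cell receptor and of some NK receptors. EOMES and TBX21 (T-bet) encode T-box transcription factors of effector lymphocytes. Such lymphocytes are known in atherosclerotic arteries, where macrophages are usually the more abundant leukocytes.

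The libraries came from the distal abdominal aorta of male minipigs, 3 pigs per group. The methods state a random choice of pigs for sequencing, in a text that covers the NC and H24 groups only. NC pigs ate a regular diet for 24 weeks. H24 pigs, labelled atherosclerosis, ate a high-fat diet for 24 weeks, which the methods describe as a high-fat and high-cholesterol (HFC) diet. H8 pigs, labelled hypercholesterolemia, had the high-fat diet for 8 weeks. All animals were of one breed with no genetic change, and the labels give no ages. The methods give an age in months at purchase, before the diet began, for the NC and H24 pigs only. The methods do not describe the H8 group, so in any comparison with H8 the length of the diet and the time of sampling cannot be told apart. RNA came from whole vessel pieces, so fewer cells of a type and less RNA per cell cannot be told apart either.

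The total count per library was 64805289 to 75787978 in NC, 68523454 to 75553522 in H8 and 44094263 to 65728854 in H24, where replicate 2 was the shallowest of all 9. H24 replicate 3 stood apart from its group, with a chi-square per degree of freedom of 1220 against either of the other H24 libraries, which had 272 between them. Summed over 8 smooth muscle markers, it had 1760 FPKM (fragments mapped to a gene, scaled by its transcript length and by the mapped fragments of the library), against 8220 and 12100 in the other H24 libraries and 10200 to 14000 in NC and H8. Summed over 8 macrophage markers, it had 963 FPKM, against 146 and 83.2 in its group, 13.5 to 81.8 in H8 and 15.1 to 16.7 in NC. The 12 T cell markers summed to 0.394 to 0.534 FPKM in NC, 1.01 to 1.79 in H8 and 5.75 to 28.2 in H24. Of 6 NK cell markers 3 had an entry, and these summed to 0.109 to 0.169 FPKM in NC, 0.0896 to 0.281 in H8 and 0.237 to 1.92 in H24. NCR1, a receptor typical of NK cells, had 0 counts in every NC library. The smooth muscle markers of the labelled tissue were thus present in every library, and the T cell markers were low in NC.

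On the pig genome Sscrofa11.1, GZMA (ENSSSCG00000016903) lies at chr16:34281371-34290407 on the plus strand, and GZMB (ENSSSCG00000001978) at chr7:74705061-74731148 on the plus strand. PRF1 (ENSSSCG00000010271) lies at chr14:73512660-73520466 on the minus strand and NKG7 (ENSSSCG00000003231) at chr6:58496089-58497827 on the plus strand. KLRK1 (ENSSSCG00000040465) lies at chr5:61623450-61659271 and CD247 (ENSSSCG00000006309) at chr4:83458419-83586639, both on the plus strand. EOMES (ENSSSCG00000040057) lies at chr13:14209029-14216499 on the minus strand and TBX21 (ENSSSCG00000017517) at chr12:23996499-24010454 on the plus strand. Each value covers all exons that the authors assigned to the gene.

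Some of these gene models share ground with others. The GZMB model spans the RefSeq gene GZMH (chr7:74723800-74727396), a granzyme of similar sequence that has no entry of its own in the table, so GZMB values may hold reads of it. CREG1 (chr4:83458421-83470091, same strand), a gene for a secreted glycoprotein, lies within the CD247 model and was far higher at 12.5 to 71.9 FPKM. Whether reads were counted by strand is not given, so reads of overlapping genes cannot be told apart. KLRK1 overlaps an entry annotated as NKG2-A/NKG2-B (ENSSSCG00000000640) and an unnamed entry on the other strand, ENSSSCG00000000642 (chr5:61646505-61671636). The latter overlaps KLRD1 as placed by RefSeq (chr5:61662083-61673109) and had 0 counts in all 9 libraries. No statement on KLRD1 expression can be made from the table.

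NKG7 rose in both diet groups and had the largest increase of the members tested in each of the 3 comparisons. Its FPKM was 1.86, 0.930 and 2.40 in NC replicates 1 to 3, 20.1, 2.29 and 7.99 in H8, and 27.2, 19.8 and 341 in H24. Every H24 library lay above every NC library, H8 replicate 2 lay within the NC range, and H24 replicate 3 was far above all other libraries. These values rested on 90 to 198 counts in NC, 197 to 1744 in H8 and 1115 to 26381 in H24. In edgeR's quasi-likelihood test the log2 fold change of H24/NC was 6.22 (standard error 1.31, adjusted p = 0.132). For H8/NC it was 2.65 (standard error 0.74, adjusted p = 0.211), and for H24/H8 it was 3.50 (standard error 1.28, adjusted p = 0.341). A gene was called when its log2 fold change was beyond 1 in size with an unadjusted p under 0.05, the thresholds of the study, and NKG7 was called in all 3 comparisons. Without H24 replicate 3 the change in H24/NC was 3.74, still called, and the adjusted p over all genes was 0.00749 in edgeR. The call of H24/H8 was lost without H24 replicate 3 (log2 fold change 1.07, edgeR adjusted p = 0.597), without H8 replicate 2 (3.04, adjusted p = 0.663) and without H8 replicate 3 (3.34, adjusted p = 0.573).

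PRF1, the perforin gene, was low and rose in H24. Its FPKM was 0.0875, 0.155 and 0.176 in NC, 0.135, 0.10 and 0.118 in H8, and 0.183, 0.331 and 1.08 in H24. The H24 libraries all lay above the NC and H8 libraries, although H24 replicate 1 was only just above NC replicate 3, and the counts behind the values were 32 to 66, 39 to 52 and 68 to 370. The log2 fold change was 1.91 in H24/NC (standard error 0.77, adjusted p = 0.343 in edgeR) and 1.97 in H24/H8 (standard error 0.74, adjusted p = 0.341). In H8/NC it was -0.10 with a standard error of 0.50, which leaves room for a change of either sign. The call of H24/NC was lost without H24 replicate 3 (log2 fold change 0.86, edgeR adjusted p = 0.731) and without any single NC library (1.66 to 2.08, adjusted p = 0.569 to 0.648). The call of H24/H8 was lost without H24 replicate 3 (0.96, adjusted p = 0.583) and without any single H8 library (1.93 to 2.05, adjusted p = 0.516 to 0.663).

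The granzyme genes were at the edge of detection outside H24. GZMA had 6, 4 and 4 counts in NC, 5, 6 and 4 counts in H8, and 20, 0 and 102 counts in H24. Its FPKM was 0.0313 to 0.0532 in NC and 0.0275 to 0.0484 in H8, with 0.178, 0 and 0.991 in H24 replicates 1 to 3. The H24 group thus held both the highest and the lowest libraries of the series. GZMA differed by 3.22 on the log2 scale in H24/NC (standard error 1.55, adjusted p = 0.422 in edgeR) and by 2.94 in H24/H8 (standard error 1.57, adjusted p = 0.428), and neither was called. For the 0 counts of H24 replicate 2, a floor of 3 counts corresponds to 0.0680 CPM (counts scaled to the library total) at its depth, and the floors of all libraries were 0.0396 to 0.0680 CPM, covering counting error only.

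GZMB had 16, 18 and 14 counts in NC, 0, 0 and 11 counts in H8, and 70, 0 and 136 counts in H24. In FPKM these were 0.0386, 0.0379 and 0.0341 in NC, 0, 0 and 0.0228 in H8, and 0.167, 0 and 0.356 in H24. Every H8 library was below every NC library, and the H24 libraries lay on both sides of NC. The log2 fold change in H24/NC was 2.2 (standard error 1.41, adjusted p = 0.545 in edgeR). The mean FPKM of GZMB was under the filter of 0.1 in the other comparisons, and without the filter it differed by -2.13 in H8/NC (standard error 1.66, adjusted p = 0.591 in edgeR). Without H24 replicate 2, GZMA (log2 fold change 3.80, edgeR adjusted p = 0.130) and GZMB (2.78, edgeR adjusted p = 0.106) were called in H24/NC, and without H24 replicate 3 both were under the filter. With all libraries kept, GZMA was also called by DESeq2 (3.24, adjusted p = 0.277) and by edgeR with all 9 libraries in one fit (3.21, adjusted p = 0.294), and GZMB by neither.

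**Figure D1:**
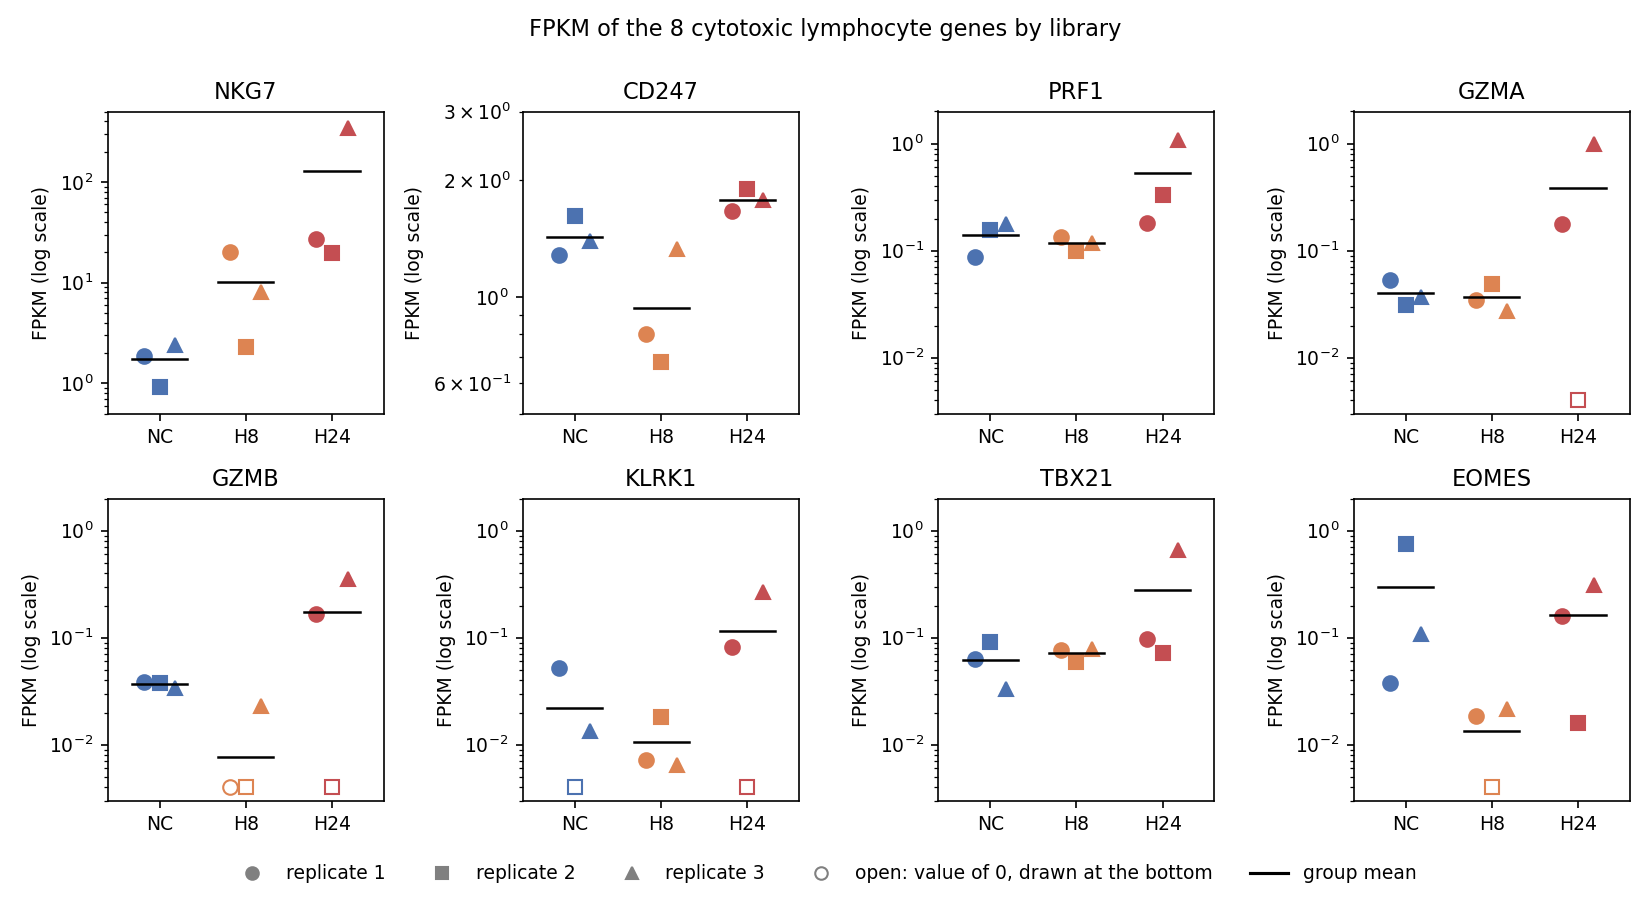
FPKM of the 8 genes in each library on a log axis, by group, with a symbol for each replicate and a line at the group mean; values of 0 are open symbols at the bottom. NKG7 reached 341 FPKM in H24 replicate 3, while 6 of the other genes stayed at or below 1.08 FPKM, and GZMA, GZMB and KLRK1 were at 0 in H24 replicate 2.

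KLRK1, the NKG2D gene, had the lowest mean FPKM of the panel in NC and in H24. It had 29, 0 and 8 counts in NC, 4, 10 and 4 counts in H8, and 44, 0 and 132 counts in H24, which are 0 to 0.0526, 0.00653 to 0.0182 and 0 to 0.265 FPKM. Libraries at 0 occurred in both NC and H24, so the groups overlapped. It was under the filter in every comparison, and without the filter its log2 fold change in H24/NC was 2.31 (standard error 1.83, adjusted p = 0.606 in edgeR). The overlapping NKG2-A/NKG2-B entry had 0 counts in all NC libraries, 0, 5 and 0 counts in H8, and 4, 4 and 30 counts in H24, and it too was under the filter.

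CD247, the zeta chain gene, was not called in any comparison. Its FPKM was 1.28, 1.61 and 1.39 in NC, 0.803, 0.680 and 1.33 in H8, and 1.66, 1.89 and 1.77 in H24, on 220 to 586 counts. The H24 libraries lay just above the NC libraries and above all of H8, and 2 of the 3 H8 libraries lay below NC. The log2 fold change was 0.28 in H24/NC (standard error 0.28, adjusted p = 0.705 in edgeR), -0.49 in H8/NC (standard error 0.31, adjusted p = 0.496) and 0.76 in H24/H8 (standard error 0.34, adjusted p = 0.383). Without H8 replicate 3 the H24/H8 change of 1.04 was called (edgeR adjusted p = 0.567). CREG1, within the CD247 model, was not called in H24/NC (0.89, standard error 0.52) or in H8/NC (-0.55, standard error 0.17), and was called higher in H24/H8 (1.39, standard error 0.51). How many CD247 reads belong to it was not tested. The CD3 chain genes of the same receptor complex had larger fitted changes in H24/NC, at 3.76 for CD3D (called), 6.20 for CD3E (called) and 3.93 for CD3G (not called), and these differences from CD247 were not tested.

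The transcription factor genes gave no call in H24/NC. TBX21 had 0.0630, 0.0913 and 0.0331 FPKM in NC, 0.0764, 0.0597 and 0.0780 in H8, and 0.0979, 0.0726 and 0.660 in H24. Only H24 replicate 3 was well above the rest, with 150 counts against 8 to 26 in the other libraries. Its log2 fold change was 2.11 in H24/NC (standard error 1.01, adjusted p = 0.421 in edgeR) and 1.73 in H24/H8 (standard error 0.96, adjusted p = 0.443). TBX21 was called in H24/NC without H24 replicate 2 (2.54, edgeR adjusted p = 0.244), by DESeq2 (2.11, adjusted p = 0.275) and by edgeR with all 9 libraries in one fit (2.10, adjusted p = 0.291), and it was under the filter without H24 replicate 3.

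EOMES fell in H8/NC, a call that rested on its highest control library. Its FPKM was 0.0377, 0.751 and 0.108 in NC, 0.0187, 0 and 0.0218 in H8, and 0.160, 0.0158 and 0.313 in H24. NC replicate 2, with 278 counts against 12 and 34 in the other NC libraries, was the highest of all 9, and every H8 library was below every NC library. EOMES fell by 4.28 on the log2 scale in H8/NC (standard error 1.43, adjusted p = 0.258 in edgeR), the only member called lower in any comparison. Without NC replicate 2 EOMES was under the filter and had no test in H8/NC. In H24/NC the change was -0.92 (standard error 1.29, adjusted p = 0.802), and it turned to 1.17 without NC replicate 2 (edgeR adjusted p = 0.804). NC replicate 2 was also the highest library for the adipocyte marker ADIPOQ (14.6 FPKM) and for 6 endothelial markers summed (145 FPKM). Of 5 tested adipocyte markers 3 were called lower in H8/NC and none higher, beside 2.27% of all genes called lower. ADIPOQ had 4.44 to 14.6 FPKM in NC and 0.0789 to 0.106 in H8. The part of tissue make-up in the H8/NC changes was not tested.

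**Figure D2:**
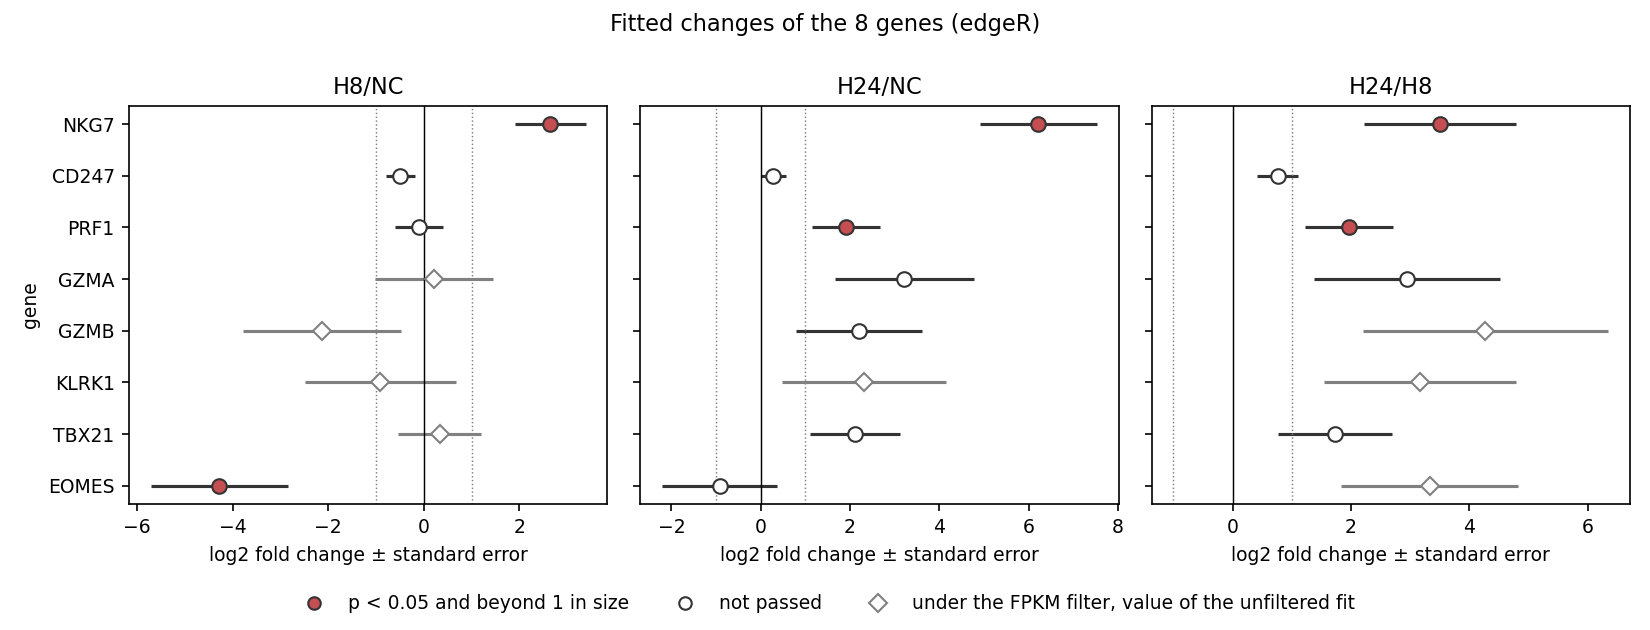
Log2 fold changes with standard errors of the 8 genes in H8/NC, H24/NC and H24/H8 from edgeR, with filled circles for called genes, open circles for tested genes that were not called, and grey open diamonds for genes under the FPKM filter. NKG7 was called in all 3 comparisons, PRF1 in both comparisons with H24, and EOMES, at -4.28, in H8/NC.

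Counted over the panel, 7 of the 8 genes passed the filter in H24/NC, and 2 of them, NKG7 and PRF1, were called higher and none lower. Over all 14828 genes tested, 9.95% were called higher and 1.52% lower. The median log2 fold change of the 7 members was 2.11, beside 0.01 over all genes tested. In H8/NC 4 members passed the filter, with 1 called higher against 5.11% of all genes, and 1 called lower against 2.27%, and their median was -0.30 beside 0.01. In H24/H8 5 members passed the filter and 2 were called higher against 7.22% of all genes and none lower against 3.05%, with a median of 1.97 beside 0.04. A gene that passed the filter through the group where it was high had to differ, so these medians describe the members that could be tested and not the panel. No member had an adjusted p under 0.05 in edgeR, beside 0.0% of all genes called with such a p in H24/NC in either direction, 0.014% higher and 0.014% lower in H8/NC, and 0.0135% higher and 0.0% lower in H24/H8. In the same fits NKG7, PRF1 and EOMES had an unadjusted p under 0.05 in at least 1 comparison, counting NKG7 in 3, PRF1 in 2 and EOMES in 1. In DESeq2, NKG7 and EOMES passed the adjusted threshold in H8/NC (adjusted p = 0.00367 and 0.0243), beside 616 of the 14336 genes tested. DESeq2 gave no p for NKG7 in the comparisons with H24. Its calls by the unadjusted p in H24/NC were 3 members, GZMA, PRF1 and TBX21, beside 1548 genes higher and 294 lower of 14828. Groups that did not overlap were found for NKG7, PRF1 and CD247 in H24/NC, all higher, where 12.8% of all genes tested did not overlap in that direction and 7.8% in the lower one. In H8/NC this held for EOMES and GZMB, both lower, beside 15.9% of all genes tested lower and 6.91% higher, where GZMB was under the filter and is not among the genes of these shares. In H24/H8 this held for PRF1 and CD247, both higher, beside 15.5% higher and 6.31% lower.

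FPKM is a level per length and can be set side by side between genes, as far as the gene models hold. The CD247 model holds CREG1 and the GZMB model spans GZMH, so their places in the order are less certain. In H24 replicate 3, GZMB had 136 counts and KLRK1 132, above the 102 of GZMA, at 0.356 and 0.265 FPKM against 0.991. The part of the gene models in the order was not tested. NKG7 and CD247 were the highest in every group, at means of 1.73 and 1.43 FPKM in NC, 10.1 and 0.936 in H8, and 129 and 1.77 in H24. In NC the ranges of these 2 genes overlapped. The other 6 genes had means of 0.0221 to 0.299 FPKM in NC, 0.00759 to 0.118 in H8 and 0.116 to 0.533 in H24. In NC and H24 each of these 6 overlapped in range with its neighbour in the order, so their order is not resolved beyond the spread between pigs. In H8 the ranges of PRF1, TBX21, GZMA and EOMES, in falling order, did not overlap between neighbours, while those of EOMES, KLRK1 and GZMB did.

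Summed over the 8 genes, the panel had 3.48, 3.61 and 4.2 FPKM in NC, 21.2, 3.20 and 9.59 in H8, and 29.7, 22.1 and 347 in H24. The H24 sums lay above all others (mean log2 difference from NC 4.03, exact permutation test, two-sided, p = 0.1, the smallest that 3 against 3 allow), and H8 overlapped with NC (1.21, exact permutation p = 0.4). NKG7 made up 25.7% to 57.2% of the sum in NC, 71.7% to 94.9% in H8 and 89.6% to 98.4% in H24. Without NKG7, in a sum added after the data were seen, the panel had 1.62, 2.68 and 1.80 FPKM in NC, 1.08, 0.906 and 1.60 in H8, and 2.53, 2.31 and 5.44 in H24. This sum overlapped between H24 and NC (log2 difference 0.68, exact permutation p = 0.3), was lower in every H8 than in every NC library (-0.77, exact permutation p = 0.1) and was higher in every H24 than in every H8 library (1.45, exact permutation p = 0.1). CD247, whose model holds CREG1, gave 1.28, 1.61 and 1.39 FPKM of this sum in NC and 0.803, 0.680 and 1.33 in H8. Without CD247 as well, a sum also added later, the panel had 0.333, 1.07 and 0.401 FPKM in NC and 0.272, 0.227 and 0.275 in H8. That difference was -1.02 (exact permutation p = 0.1), and H24 overlapped with NC (1.08, exact permutation p = 0.4). The direction of the summed panel in H8 against NC thus differed with and without NKG7.

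The panel was also set beside T cell content, read from the CD3 chain genes CD3D, CD3E and CD3G. Their summed FPKM was 0.178, 0.246 and 0.0465 in NC, 0.232, 0.277 and 0.291 in H8, and 1.60, 16.4 and 6.75 in H24. The panel per CD3 chain FPKM overlapped between all groups (log2 difference of H24 from NC -1.44, exact permutation p = 0.5). Without NKG7 it was 9.08, 10.9 and 38.6 in NC, 4.63, 3.27 and 5.51 in H8, and 1.58, 0.141 and 0.806 in H24, with no overlap between any groups (exact permutation p = 0.1 in each comparison). CD247 alone made up at least 6.57 of this ratio in every NC library, 3.46, 2.45 and 4.56 in H8, and 1.04, 0.115 and 0.262 in H24. CD3E alone had 15.8 FPKM in H24 replicate 2, beside 0.267 for CD3D and 0.374 for CD3G in that library, and its model (chr9:45619381-45635379, plus strand) overlaps that of CD3D (chr9:45622468-45644243, minus strand). The 11 T cell markers other than CD3E summed to 0.261 to 0.424 FPKM in NC, 0.858 to 1.58 in H8 and 4.53, 2.74 and 23.2 in H24. Per FPKM of these 11 markers, the panel without NKG7 and CD247 had 0.784, 4.08 and 1.15 in NC, 0.205, 0.264 and 0.174 in H8, and 0.191, 0.153 and 0.158 in H24. It was below NC in all libraries of both diet groups (exact permutation p = 0.1 for each), and H24 and H8 overlapped (log2 difference -0.34, exact permutation p = 0.2). On the same scale PRF1 had 0.206, 0.593 and 0.504 in NC, 0.101, 0.117 and 0.0747 in H8, and 0.0405, 0.121 and 0.0467 in H24. By this ratio all H8 and H24 libraries lay below all NC libraries for PRF1 (exact permutation p = 0.1 for each diet group against NC), and the diet groups overlapped. The NC denominators rest on few counts, such as 0 to 13 for CD3D and 11 to 35 for CD8A per library. The NC numerators without NKG7 and CD247 were low too, with 4 to 6 counts of GZMA per library. In NC replicate 2, the library with the ratio of 4.08, EOMES alone made up 0.751 of the 1.07 FPKM in the numerator.

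H24 replicate 2 was unlike the other H24 libraries in some of these genes. It had 0 counts of GZMA, GZMB and KLRK1, and in the wider lists also of GZMK and FASLG, which encode a further granzyme and the Fas ligand. Of the other members, PRF1 (0.331 FPKM) and CD247 (1.89) were higher there than in H24 replicate 1 (0.183 and 1.66). NKG7, TBX21 and EOMES were lower there. GNLY, a gene of the wider lists, had 0.806 FPKM there against 0.0803 in H24 replicate 1. In the same library CD8A, a coreceptor gene of cytotoxic T cells, had 51 counts and CD4 had 105 counts, against 210 and 335 in H24 replicate 1 and 698 and 1602 in replicate 3. It also had the lowest total count of the series, and the part of depth in these zeros was not tested.

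Among named genes whose mean FPKM reached 1, the profiles nearest to NKG7 over the libraries included those of myeloid genes. The measure of likeness was the root mean square difference between profiles over the 9 libraries, each profile being log2(FPKM + 0.1) centred on its own mean. The minimum of 1 left out the NK cell markers and most T cell markers, such as CD8A, while CD68 and most macrophage markers passed it. Likeness of NKG7 to the lymphocyte markers left out was therefore not tested. The smallest differences from NKG7 were those of AMBN (0.231), LCP1 (0.362), CD68 (0.421), C5AR1 (0.425) and FCER1G (0.425). LCP1 encodes a leukocyte actin-bundling protein, CD68 a lysosomal glycoprotein used as a macrophage marker, C5AR1 the C5a receptor and FCER1G the Fc receptor gamma chain, while AMBN is known as an enamel matrix gene. CD68 had 6.23, 4.36 and 4.10 FPKM in NC, 39.6, 5.40 and 23.5 in H8, and 65.3, 38.7 and 616 in H24. NKG7 was 0.213 to 0.585 of the CD68 level in NC, 0.340 to 0.507 in H8 and 0.416 to 0.553 in H24. CD68 was set beside NKG7 for its likeness, so a narrow range of this ratio follows from the choice and is no test. What part of NKG7 RNA came from which cells was not tested.

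**Figure D3:**
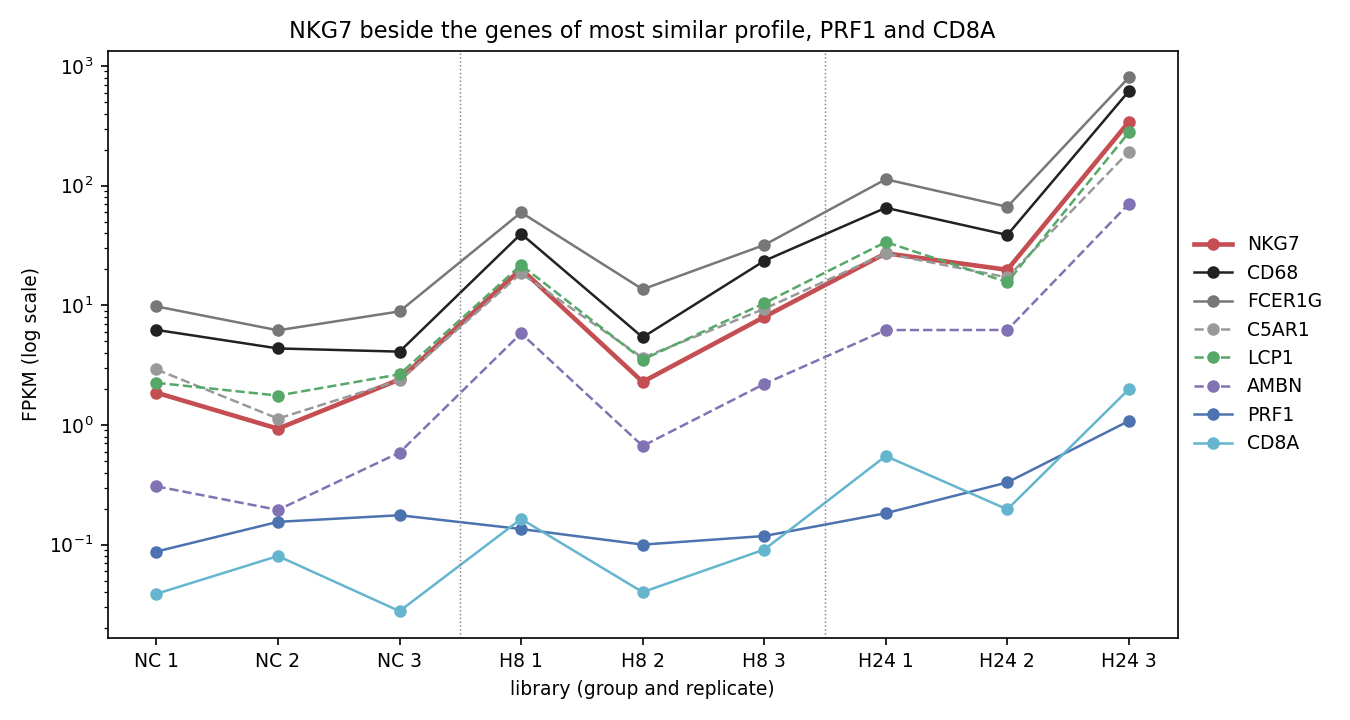
FPKM on a log axis in the 9 libraries for NKG7, the 5 genes of nearest profile among named genes whose mean FPKM reached 1 (AMBN, LCP1, CD68, C5AR1, FCER1G), PRF1 and CD8A. NKG7 was 0.213 to 0.585 of the CD68 level, a gene shown for its likeness to NKG7, and PRF1 stayed between 0.0875 and 0.331 FPKM in all but H24 replicate 3.

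The distance of single members from the mean profile of the 6 members whose mean FPKM over the 9 libraries reached 0.1 (GZMA, PRF1, NKG7, CD247, EOMES and TBX21) was 1.74 for NKG7, 0.961 for EOMES and 0.726 for CD247. It was 0.298 for PRF1, 0.306 for TBX21, 0.410 for GZMB, 0.421 for GZMA and 0.474 for KLRK1. The 6 members are part of that mean, and the added 0.1 FPKM flattens the profiles of genes near or below that level. These distances are therefore no test of likeness. The genes outside the panel nearest to that mean profile were GALNS (0.159), KIAA0930 (0.160), PSEN2 (0.170), PSMB10 (0.173) and DAGLB (0.179). They were expressed at 1.75 to 18.5 FPKM in the NC libraries, were called higher in H24/NC with log2 fold changes of 1.43 to 1.80 and were not called in H8/NC. For CD247 the nearest profiles were those of DGUOK (0.137), PLPP5 (0.146) and WDR73 (0.150).

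Genes that act beside the panel were followed in 4 lists. Of the 19 genes for granule effectors and release machinery 17 were tested in H24/NC, and 8 of these were called higher and none lower, with a median log2 fold change of 1.81. This and the other list counts in H24/NC stand beside 9.95% of all genes called higher. The highest fitted values were those of XCL1, a lymphocyte chemokine, and STXBP2, which encodes Munc18-2, a protein of granule fusion. XCL1 had 0 counts in every NC library and 6 to 29 in H24, which is at least 17.3-fold higher than a floor of 3 counts over the NC group. On the log2 scale this bound is 4.11, below the values of STXBP2, FASLG (4.65, not called) and GZMK (4.61, not called), so the rank of XCL1 is not known. STXBP2 rose by 4.81 on the log2 scale (standard error 0.94, edgeR adjusted p = 0.132), from 0.179 to 0.331 FPKM in NC to 1.99 to 17.8 in H24. GZMM, the granzyme M gene, had the lowest value at -0.15 (standard error 0.61), with 0.910, 0.333 and 1.24 FPKM in NC and 0.736, 0.870 and 0.659 in H24. In H8 GZMM had 0.0440, 0.286 and 0.278 FPKM, all below NC (log2 fold change -1.80, standard error 0.80, edgeR adjusted p = 0.355). GZMM was thus the granzyme with the highest level in NC, above GZMA, GZMB and GZMK. Beside SRGN (3.50) and CTSC (2.68), whose products are the granule proteoglycan serglycin and the protease that activates granzymes, the called genes included CST7, LAMP1, UNC13D and STX11. SRGN, CTSC and LAMP1 are also expressed in myeloid and other cells. Which cells gave the RNA was not tested for any gene of this list, STXBP2, STX11, UNC13D and CST7 included.

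Of the 23 genes for receptors and signalling adaptors 14 were tested in H24/NC, with 12 called higher, none lower and a median of 4.53. SH2D1A, which encodes the adaptor SAP, and NCR1, which encodes the NK receptor NKp46, had the largest changes. Both had 0 counts in every NC library. SH2D1A had 44, 9 and 139 counts in H24, at least 77.1-fold above the floor of 3 counts over the NC group. NCR1 had 0, 8 and 113 counts in H24, at least 48.6-fold above that floor, with H24 replicate 1 itself at 0 and H8 at 4, 12 and 20 counts. LAT, a T cell adaptor gene, had the lowest value at 0.98 (standard error 0.40), with 6.70 to 9.20 FPKM in NC and 9.31 to 25.6 in H24. TYROBP (4.97) and FCER1G (5.29), adaptors that NK cells share with myeloid cells, were at 77.7, 53.8 and 493 FPKM and at 113, 66.5 and 802 FPKM in H24.

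Of the 17 genes for cytokines and their receptors 9 were tested, with 6 called higher, none lower and a median of 3.78. IL18, an interleukin that acts on NK and T cells, changed most at 5.19 (standard error 1.68), from 0, 0.190 and 0 FPKM in NC to 2.34, 0.517 and 4.69 in H24. IL12RB1 differed by 4.12 (standard error 1.86, not called) and IL18R1, a chain of the interleukin 18 receptor, by 0.10 (standard error 0.35), with overlapping groups in both. IFNG, the interferon gamma gene, was under the filter with 0 counts in every NC library, 6 counts in 1 H8 library, and 9, 0 and 24 counts in H24. Of the 15 lymphocyte transcription factors 14 were tested, with 7 called higher, none lower and a median of 1.72. PRDM1, which encodes Blimp-1, changed by 4.90 (standard error 0.89) and STAT4 by 4.82 (standard error 1.71), while TOX differed by 0.04 (standard error 0.62).

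In H8/NC the 4 lists had 3 of 14, 3 of 8, 2 of 6 and 4 of 11 tested genes called higher, in the order given, and none lower, beside 5.11% of all genes called higher. In H24/H8 they had 8 of 17, 11 of 15, 5 of 9 and 5 of 14 called higher, beside 7.22% of all genes, and NFIL3, a transcription factor gene of NK cell development, was called lower (-1.60, standard error 0.42). NFIL3 was among those called higher in H8/NC (1.67, standard error 0.65). NFIL3 had 9.65, 15.1 and 47.9 FPKM in NC, 56.7, 107 and 40.3 in H8 and 26.9, 25.0 and 26.3 in H24. The NK cell markers with an entry summed to at most 1.92 FPKM in any library, and which cells gave the NFIL3 RNA was not tested. No gene of the 4 lists had an adjusted p under 0.05 in edgeR. By the unadjusted p of edgeR, 33, 12 and 30 of them were called in H24/NC, H8/NC and H24/H8. DESeq2 put 23, 5 and 18 of them past the adjusted threshold, beside 954, 616 and 650 of the 14828, 14336 and 14788 genes tested. Beside the edgeR calls of the lists, 8 of the 11 tested T cell markers were called higher in H24/NC. All 8 macrophage markers and all 5 general leukocyte markers were called higher too. None of the 8 smooth muscle markers was called. Fewer were called higher among the tested NK cell (1 of 2), B and plasma cell (1 of 5), fibroblast (2 of 6) and adipocyte markers (2 of 6). None of the 6 endothelial markers was called. The part of leukocyte content in the list counts was not tested. Of the 100 genes that the table annotates to the KEGG pathway of natural killer cell cytotoxicity, CD247, GZMB, KLRK1 and PRF1 are members of the panel. In that pathway 32 of 92 tested genes were called higher and none lower in H24/NC, 14 higher and 1 lower of 83 in H8/NC, and 24 higher and 1 lower of 91 in H24/H8, with medians of 0.76, 0.20 and 0.66, beside the 9.95%, 5.11% and 7.22% of all genes called higher.

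**Figure D4:**
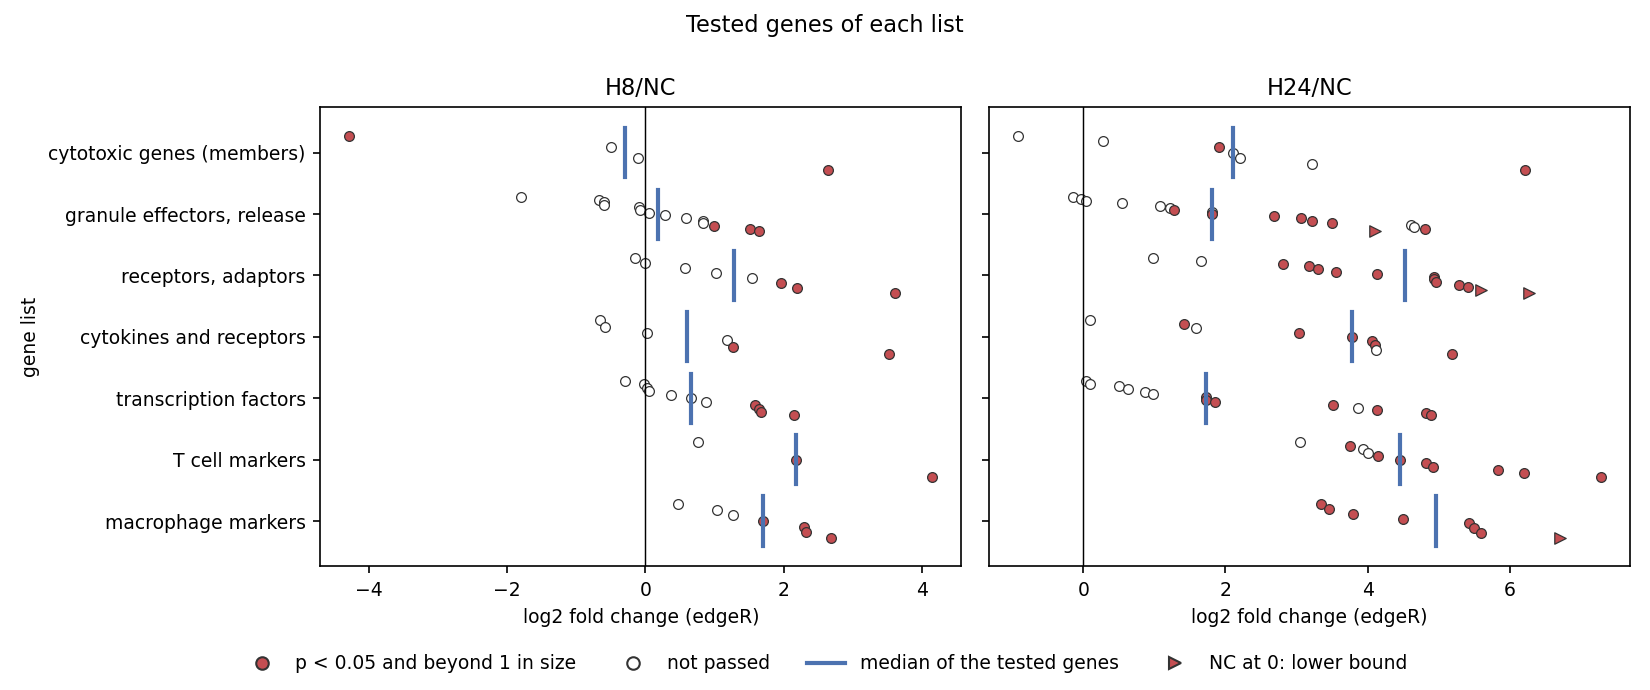
Log2 fold changes of the tested genes in the panel, the 4 related lists and the T cell and macrophage markers, in H8/NC and H24/NC, with filled symbols for called genes, a bar at the median and triangles for lower bounds of genes at 0 in NC (XCL1, NCR1, SH2D1A and MARCO). In H24/NC the receptor and adaptor list had a median of 4.53, and the panel 2.11 with 2 of 7 genes called.

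Entries that the table describes as killer cell lectin-like receptors without a gene name were looked up after the data were seen, because KLRD1 was missing. The entry ENSSSCG00000034555 (chr5:62106284-62124604, plus strand), described as subfamily B member 1B allele B, was the highest of them. It had 0.393, 0.293 and 0.459 FPKM in NC, 2.51, 0.670 and 1.91 in H8, and 4.53, 1.78 and 31.6 in H24. Every H8 and every H24 library lay above NC, which held for 6.91% of all genes tested in H8/NC and 12.8% in H24/NC. Its log2 fold changes were 2.26 in H8/NC (standard error 0.47, edgeR adjusted p = 0.187) and 5.03 in H24/NC (standard error 1.11, adjusted p = 0.132). The named gene KLRB1, which encodes CD161, was much lower, with 4, 0 and 0 counts in NC, 6, 0 and 0 counts in H8 and 18, 4 and 53 counts in H24. ENSSSCG00000000663, described as receptor G1, had 36, 0 and 4 counts in NC and 0, 0 and 5 in H8. In H24 it had 28, 30 and 98 counts and overlapped with NC in FPKM (log2 fold change 2.16, standard error 1.44, not called). It was called higher in H24/H8 (5.06, standard error 1.46). ENSSSCG00000000636, described as subfamily A member 1, had 0, 0 and 11 counts in NC, 0 in H8, and 11, 0 and 0 in H24. ENSSSCG00000000638 had 0 counts in every library.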

How the data were processed

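RNA-seq of abdominal aorta in 3 groups of 3 pigs was analysed. The authors mapped paired-end poly(A) libraries to Sscrofa11.1 with HISAT2 2.0 and quantified genes with StringTie 1.3.0. The submitters' processing notes also name Bowtie 0.12.2 and a mouse genome build, and the extraction text an adipose type, whereas the table has pig gene IDs and the labels give aorta. The deposited table holds FPKM values per gene and library. The deposited table also holds estimated counts, whole numbers not scaled for depth, whose derivation, strand setting and annotation release are not given in the sources used here.

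Libraries were grouped by title and all were used. The labels number replicates 1 to 3 in each group, but same-numbered libraries did not deviate together (Pearson's r over genes -0.0494 to 0.0818), so they were not paired. No libraries agreed within sampling noise (lowest chi-square per degree of freedom 182). Replicates are separate pigs.

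Counts were fitted in edgeR 4.0.16 (R 4.3.3) with TMM normalization, a dispersion trend and the two-sided quasi-likelihood test, on the 6 libraries of each comparison and on genes whose mean FPKM in them reached 0.1. P-values were adjusted by Benjamini-Hochberg over all genes tested. Genes were called at an absolute log2 fold change over 1 with p under 0.05 before adjustment. Single values per library were compared by exact permutation tests, two-sided, on log2 values. Named genes were all members, the 2 largest and the smallest signed log2 fold change in H24/NC of each list, the 5 nearest profiles, and reference genes; profiles of NKG7 and CD247, other named list genes and lectin-like entries were added after their values were seen. RefSeq coordinates are on Sscrofa11.1. Alternatives used DESeq2 1.42.0, limma 3.58.1, other scalings and filters, a replicate block and leaving out each library. The fits were tested on simulated data. The members and lists were chosen with earlier results of these data known. Intervals by counting cover counting error only. No gene sequences were used here.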

Additional observations from a re-analysis of the deposited data

Results flagged for a closer look

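The difference between the diet groups, fitted on the H24 and H8 libraries alone, was itself past the unadjusted threshold for 2 members. The log2 fold change of H24 minus H8 was 1.97 for PRF1 (edgeR adjusted p = 0.341), with all 3 H24 libraries above all 3 H8 libraries. For NKG7 it was 3.50 (edgeR adjusted p = 0.341), with 2 of 3 H24 libraries above all H8 libraries. Neither passed the adjusted threshold, and both calls were lost without H24 replicate 3.

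A signal also appeared in an entry left out of the panel. The second entry named GZMA (ENSSSCG00000016902, chr16:34262413-34274223) had 0 counts in every NC and H8 library and up to 32 counts in H24, with 8, 0 and 32 counts in replicates 1 to 3. How the counting shared reads between the 2 entries of that name was not tested.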

How the results depend on the processing

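The number of members called in H24/NC, 2 as reported, was 1 with a mean FPKM of at least 1 and with limma on log2(FPKM + 0.1) or log2(FPKM + 1), 4 with all 9 libraries in one fit, and 1 to 5 with each library left out. In H8/NC, also 2, it was 1 with the FPKM minimum of 1 and with either limma setting, and 1 to 2 with each library left out. In H24/H8, also 2, it was 1 with the FPKM minimum of 1, either limma setting and DESeq2, which gave NKG7 no p there or in H24/NC, and 0 to 5 with each library left out. Members past the adjusted threshold numbered 2 in H8/NC with DESeq2, and 0 to 1 with each library left out in H24/NC (1 without H24 replicate 3). The changes that reversed were EOMES in H24/NC (-1.80 to 1.17 with each library left out, above 0 without NC replicate 2) and PRF1 in H8/NC (-0.36 to 0.09, at 0.01 and 0.09 without NC replicates 2 and 3).

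With the replicate block, for numbers that did not pair the pigs, members called numbered 1 in H8/NC and 1 in H24/H8, list genes called in H8/NC 7, genes past the adjusted threshold 0 in H8/NC and 0 in H24/H8, and EOMES in H24/NC turned to 0.21.

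List genes called in H24/NC (33), H8/NC (12) and H24/H8 (30) numbered 20, 6 and 18 with the FPKM minimum of 1 and 18, 3 and 17 with limma on log2(FPKM + 1), and ranged over 20 to 37, 5 to 13 and 13 to 32 with each library left out. All genes called (1700, 1059 and 1519) numbered 855, 343 and 694 with limma on log2(FPKM + 1), 618 in H8/NC with the FPKM minimum of 1, and 1132 to 2251, 845 to 1244 and 804 to 2091 with each library left out. With library size as the only scaling, the median of all genes moved to -0.13 in H8/NC and 0.24 in H24/H8, and the share of calls that were higher moved from 69.2% to 55.7% and from 70.3% to 83.3%. With limma on log2(FPKM + 0.1) that share was 47.3% in H8/NC. Genes past the adjusted threshold (0, 4 and 2) numbered 954, 616 and 650 with DESeq2, 10, 26 and 1 with limma on log2(FPKM + 0.1), 6, 0 and 1 with all 9 libraries in one fit, 1 in H24/NC and 8 in H8/NC with the FPKM minimum of 1, 8 in H8/NC with no filter, 2 in H24/NC and 1 in H24/H8 with limma on log2(FPKM + 1), 0 in H8/NC and 1 in H24/H8 with no dispersion trend, and 0 to 306, 1 to 37 and 0 to 4 with each library left out. List genes past it ranged over 0 to 9 in H24/NC with each library left out. The causes were not tested.

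The summed panel difference of 4.03 in H24/NC was 0.68 without NKG7 and 1.08 without NKG7 and CD247, and that of 1.21 in H8/NC was -0.77 and -1.02. With each library left out it was 2.77 to 4.76, 0.56 to 1.93 and 1.57 to 3.55 in H24/NC, H8/NC and H24/H8. Per CD3 chain FPKM the differences were -1.44, 0.14 and -1.58. They became -4.79 and -1.84 without NKG7 in H24/NC and H8/NC, and -0.64 in H8/NC and 0.38 in H24/H8 with the other T cell markers in place of the CD3 chains. With each library left out they were -2.56 to 0.06, -0.60 to 0.94 and -2.70 to -0.08. These 3 changes of the sum were added after the data were seen. GZMA, GZMB, KLRK1 and EOMES each had libraries at 0 counts, and 3 libraries a group cannot give an exact permutation p below 0.1.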
